A study of Mus musculus with 6 samples.

Results

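Ephrins and semaphorins are membrane-bound or secreted guidance cues, and Eph receptors, plexins and neuropilins are the cell-surface receptors that read them. Their genes were picked from the deposited counts by symbol, with 5 patterns that cover the Eph receptors, the ephrins, the semaphorins of classes 3 to 7, the plexins and the neuropilins. They found 53 of the 21960 genes in the counts, of which 25 encode receptors and 28 encode ligands. RNA-Seq was performed on 6 libraries of TuBo cells, a HER2-positive mammary tumor line established from BALB/c-MMTV-NeuT animals, which the labels call Balb-NeuT. The 3 mock libraries carry the genotype label wt, and the 3 p140Cap libraries come from cells that overexpress p140Cap, an adaptor protein encoded by Srcin1, from a retroviral pBabe-puro vector. By the study's methods, transduced cells were selected in puromycin, and clones grown from single cells were pooled, so p140Cap cells stand for a small number of founder cells. The deposited description speaks of mice in one place and of cell lines in another, and the libraries were read here as cell lines.

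Total reads on genes ranged from 13770385 to 75506562 per library, each mock library being deeper than each p140Cap library. Reads are given below as CPM, counts scaled to a common normalized library size, and levels of different genes are compared as RPKM, which is CPM per kilobase of transcript. Srcin1 was at 15.6, 12.8 and 16.6 CPM in mock libraries and at 2265, 2520 and 2244 CPM in p140Cap libraries, which is the direction the labels give. Luminal epithelial markers were abundant (Epcam, Krt8, Krt18, Cdh1 and Erbb2). Their summed level was 5245 to 5570 CPM in mock and 6184 to 6339 CPM in p140Cap libraries. Of the 5 tested, 3 were called, each higher in p140Cap cells, by at most 0.42 log2 units (Epcam). Among all genes tested, 71.1% were called and 35.2% were called higher. Krt19 was near 0. The summed level of 5 endothelial markers, mostly from Pecam1, was 0.21 to 0.503 CPM in mock and 0.477 to 0.734 CPM in p140Cap libraries, with Kdr at 0 reads. That of 6 immune markers, almost all from Cd68, was 2.06 to 2.34 CPM and 3.23 to 4.09 CPM, with Ptprc, Cd3e and Adgre1 at 0 reads. Fibroblast markers, from Pdgfra and Col1a1, summed to 9.97 to 10.5 CPM and 11.3 to 14.1 CPM, with Col1a2, Dcn and Lum at 0 reads. Of the nervous system markers, Snap25 and Syt1 had 0 reads, while Mbp was at 40, 38 and 38.6 CPM in mock and 43.5, 49.1 and 40.4 CPM in p140Cap libraries. Myoepithelial markers stayed below 1 CPM in sum. The part of these marker levels in the differences below was not tested.

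In the classical view, Eph receptors are receptor tyrosine kinases in which the A class binds GPI-anchored ephrin-A ligands and the B class binds transmembrane ephrin-B ligands. Both partners sit on cell surfaces, so they signal at cell contacts and can do so in both directions. Plexins bind semaphorins and act on small GTPases and the cytoskeleton, and most class 3 semaphorins, which are secreted, need a neuropilin as a co-receptor. In mammary epithelium and its tumors, these families are known for roles in branching, cell sorting, migration and vessel growth, and EphA2 and plexin-B1 have been linked to HER2 signaling.

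Of the 53 genes, 48 had at least 1 read. Epha3, Epha6, Epha8, Sema3a and Sema5b had 0 reads in all libraries, which allows up to 0.0201 CPM over the mock libraries and 0.069 CPM over the p140Cap libraries, for counting error only. Another 9 genes had too few reads for a test. Among these, Epha5, Epha10, Ephb1, Plxna2, Plxna4, Plxnc1 and Sema4f had between 1 and 5 reads in total, Sema3g had 12 and Sema6b had 35. The remaining 39 genes were tested, 16 for receptors and 23 for ligands.

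p140Cap cells had higher levels of 23 and lower levels of 9 of the 39 tested genes. Calls were made with edgeR (quasi-likelihood F-test) where the Benjamini-Hochberg value over 11800 genes was under 0.05. Thus 82.1% of the tested guidance genes were called, compared with 71.1% of all genes tested. The share called higher was 59% and the share called lower was 23.1%, while the corresponding values over all genes were 35.2% and 35.9%. In bulk RNA, a lower level can reflect fewer cells that express a gene or less RNA per cell, and these cannot be told apart. Sema7a and Sema3e passed the filter on low counts only through the mock libraries, in which they were high, so their calls are given as a description and not as support. Among the 36 genes with at least 10 reads in every library, 23 were called higher and 6 lower when only such genes were fitted. That fit called 8076 of all genes, and the share this makes was not computed. The shares above belong to the main filter.

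The largest differences were found in semaphorins, in 1 neuropilin and in 1 Eph receptor. Genes called with a difference of at least 1 log2 unit were Sema6d, Sema6c, Ephb2, Sema4a and Sema4c, which were higher in p140Cap cells, and Sema7a, Sema3e, Nrp1 and Sema3c, which were lower. Such genes made up 4.93% of all genes tested on the higher side and 5.04% on the lower side. The CPM values of the groups did not overlap for 33 of the 39 genes, against 73.4% of all genes tested.

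**Figure D1:**
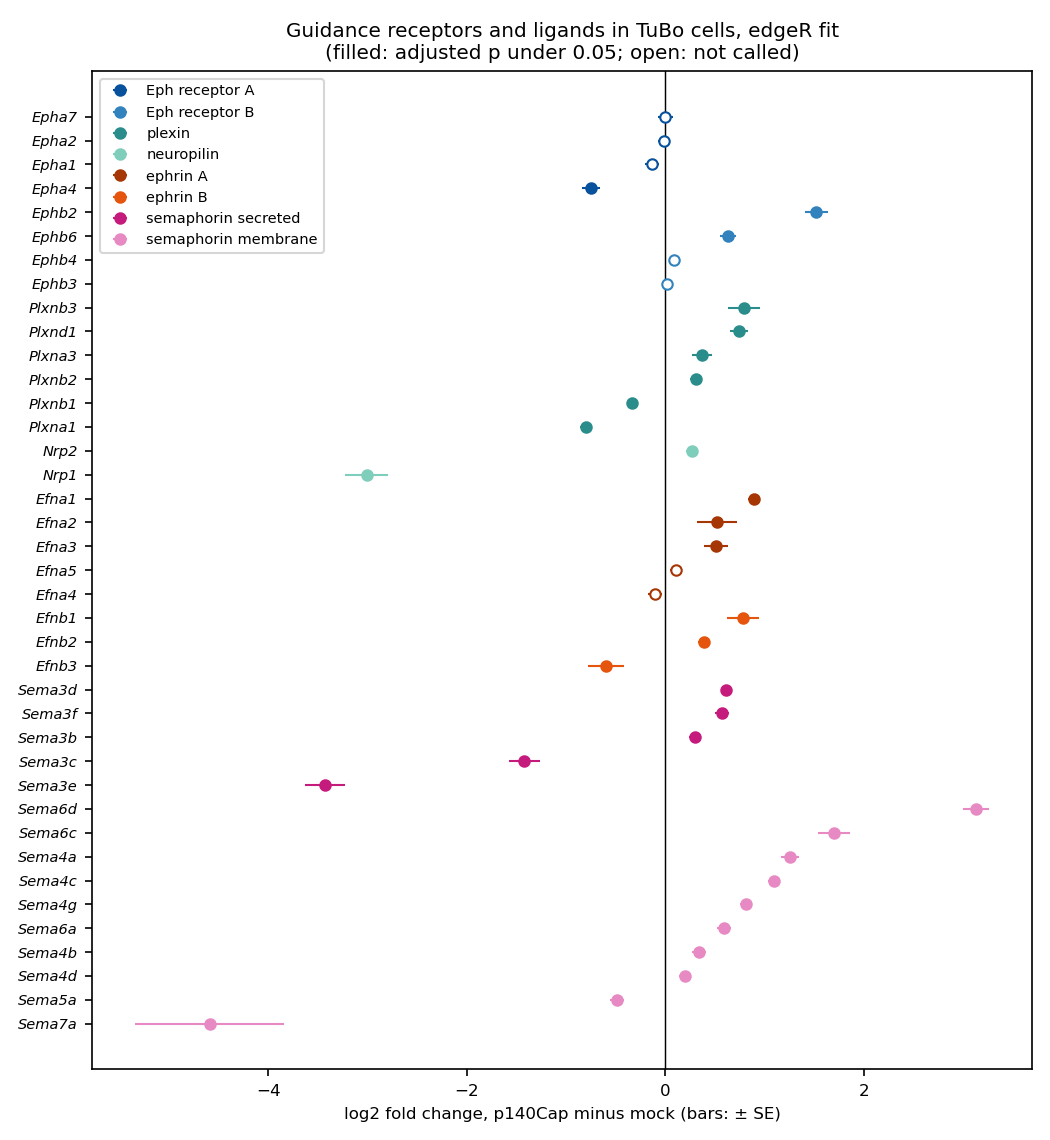
Log2 fold change (p140Cap minus mock, x axis) with its SE for the 39 tested guidance genes (y axis), colored by family, with filled points for genes called by edgeR and open points for the others. Sema7a (-4.59), Sema3e (-3.43) and Nrp1 (-3.01) lie farthest to the left and Sema6d (3.13) farthest to the right, while 5 of the 8 Eph receptors are open points near 0.

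Among Eph receptors, 8 of 14 genes could be tested and 3 of these were called, 2 higher and 1 lower, or 37.5% against 71.1% of all genes tested (median log2 fold change of the 8 genes 0.01, that of all genes 0.00). The 3 Eph receptors with the highest level per length were not called. Ephb3, an EphB receptor, had 125, 119 and 131 CPM in mock and 129, 133 and 120 CPM in p140Cap libraries, and these values overlap between groups. Its log2 fold change was 0.02 (95% confidence interval -0.09 to 0.14, adjusted p = 0.691, edgeR). Epha2, a receptor for ephrin-A1, was at 107, 96.6 and 110 CPM in mock and at 98.2, 114 and 96.6 CPM in p140Cap libraries, which again overlap. The interval of its log2 fold change was -0.16 to 0.12 (adjusted p = 0.793, edgeR), and that of Ephb4, the main receptor for ephrin-B2, was -0.02 to 0.20 (adjusted p = 0.114). These intervals leave room for differences of at most 0.20 log2 units either way. Together Epha2, Ephb3 and Ephb4 made up 78.5% ± 0.63 of the summed Eph receptor RPKM in mock and 77.9% ± 0.329 in p140Cap cells (SD, n = 3 libraries each). Epha1 and Epha7 were also not called, at log2 fold changes of -0.14 and 0.00.

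Ephb2, an EphB receptor known for cell sorting in epithelia, was rare in mock cells and rose in p140Cap cells. It had 281, 119 and 138 reads in mock and 163, 140 and 145 reads in the shallower p140Cap libraries, or 3.67, 2.99 and 4.14 CPM and 10.7, 9.54 and 10.6 CPM. All p140Cap libraries were above all mock libraries (log2 fold change 1.52, SE 0.12, adjusted p = 8.41e-09, edgeR). Ephb6, which lacks kinase activity, was at 21.8, 19.2 and 23.8 CPM in mock and at 35, 34.3 and 31 CPM in p140Cap libraries, with no overlap (log2 fold change 0.63, SE 0.08, adjusted p = 1.92e-06). Epha4, a receptor that binds ephrins of both classes, moved the other way. It was at 16.5, 15.6 and 15 CPM in mock libraries and at 10.1, 8.92 and 8.96 CPM in p140Cap libraries, with no overlap (log2 fold change -0.75, SE 0.09, adjusted p = 6.43e-07). Even after its rise, Ephb2 had a level of 0.941 ± 0.0613 RPKM (SD, n = 3), far below that of Ephb3 at 30.4 ± 1.63 RPKM.

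All 8 ephrin genes had enough reads for a test, and 5 were called higher and 1 lower in p140Cap cells (median log2 fold change 0.45). The 75% called is close to the 71.1% of all genes tested. Efna1, which encodes the GPI-anchored ligand ephrin-A1, had the largest change. It was at 24.4, 25.9 and 27.1 CPM in mock and at 48.1, 49.5 and 45.4 CPM in p140Cap libraries, with a wide gap between the groups (log2 fold change 0.89, SE 0.06, adjusted p = 1.55e-09, edgeR). Its share of the summed ephrin RPKM was 37.1% ± 1.08 in mock and 50% ± 0.853 in p140Cap cells (SD, n = 3 libraries each). With summed exon lengths the shares were 21.7% and 32.3%, and Efna4 then ranked above Efna1 in mock cells. Efna3 was at 3.33, 3.44 and 3.24 CPM and at 4.81, 5.11 and 4.33 CPM (log2 fold change 0.51, SE 0.12, adjusted p = 0.00158), and with all libraries thinned to the same total it was 0.35 and not called (adjusted p = 0.0509). Efna2 was at 2.44, 2.01 and 2.79 CPM in mock and at 2.57, 3.07 and 4.85 CPM in p140Cap libraries, so its groups overlapped. The fitted log2 fold change was 0.52 with an SE of 0.20 (adjusted p = 0.028), and without p140Cap replicate 3, the library with the highest value, it was 0.22 (adjusted p = 0.347), without a call. Efna4 and Efna5 were not called, although their libraries did not overlap between groups, with intervals of -0.25 to 0.03 and -0.02 to 0.24 for the log2 fold change.

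Of the transmembrane ephrins, Efnb2 had the highest level, at 36, 35.2 and 35.1 CPM in mock and 49.8, 45.8 and 43.8 CPM in p140Cap libraries. The groups did not overlap (log2 fold change 0.39, SE 0.06, adjusted p = 1.33e-05, edgeR). Efnb1 was rarer, at 1.69, 1.76 and 1.65 CPM in mock and 2.83, 3.07 and 2.86 CPM in p140Cap libraries, without overlap (log2 fold change 0.78, SE 0.16, adjusted p = 0.000298). Efnb3 went from 3.07, 2.39 and 2.52 CPM down to 1.65, 1.91 and 1.84 CPM (log2 fold change -0.60, SE 0.18, adjusted p = 0.0077). Without mock replicate 1, the fall of Efnb3 was 0.45 and no longer called (log2 fold change -0.45, adjusted p = 0.0554).

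Semaphorins were the family with the widest spread of changes, from -4.59 (Sema7a, with 1 read over the p140Cap libraries) to 3.13 log2 units (Sema6d). All 15 of the tested genes, out of 20, were called, 11 higher and 4 lower (median log2 fold change 0.57), against 71.1% of all genes tested. These 15 include Sema3e and Sema7a, which passed the filter on low counts only through the mock libraries, so the share is a description. Sema3b, a secreted class 3 semaphorin, had the highest RPKM of the guidance genes. It was at 514, 476 and 544 CPM in mock and at 613, 663 and 614 CPM in p140Cap libraries, so that the groups stood apart by a modest step (log2 fold change 0.30, SE 0.06, adjusted p = 0.000123, edgeR). Its share of the summed semaphorin RPKM was 60.1% ± 0.753 in mock and 55.4% ± 0.483 in p140Cap cells (SD, n = 3 libraries each). Sema3d was second, at 146, 143 and 138 CPM in mock and 221, 207 and 222 CPM in p140Cap libraries (log2 fold change 0.61, SE 0.05, adjusted p = 8.53e-09). Sema3f, a ligand that signals through Nrp2, had a log2 fold change of 0.57 (adjusted p = 2e-06).

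Other class 3 semaphorins fell in p140Cap cells. Sema3e, the ligand of plexin-D1, had 459, 231 and 208 reads in mock and 5, 10 and 9 reads in p140Cap libraries, or 6, 5.81 and 6.25 CPM and 0.33, 0.681 and 0.661 CPM. Its transcript was thus nearly lost in each p140Cap library (log2 fold change -3.43, SE 0.20, adjusted p = 2.63e-10, edgeR). On reads pooled over each group, 898 and 24, mock cells exceeded p140Cap cells 10.9 times, with a 95% exact binomial counting interval of 7.26 to 17.1. Sema3c was at 5.14, 4.68 and 4.47 CPM in mock libraries and at 1.78, 2.18 and 1.4 CPM in p140Cap libraries, without overlap (log2 fold change -1.42, SE 0.16, adjusted p = 7.84e-07).

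Membrane-bound semaphorins were mostly higher in p140Cap cells, with 8 of 10 tested genes called higher and 2 lower, against 35.2% and 35.9% of all genes tested. The 2 lower genes include Sema7a, which passed the filter on low counts only through the mock libraries. Sema6d, a transmembrane ligand of plexin-A1, had 90, 45 and 34 reads in mock and 161, 134 and 135 reads in p140Cap libraries despite their lower depth. Its level was 1.18, 1.13 and 1.02 CPM in mock and 10.6, 9.13 and 9.92 CPM in p140Cap libraries, the largest increase among the tested guidance genes (log2 fold change 3.13, SE 0.13, adjusted p = 5.19e-12, edgeR). Sema6c, of the same class, was at 1.69, 1.18 and 1.56 CPM and at 4.75, 4.7 and 5.36 CPM (log2 fold change 1.70, SE 0.16, adjusted p = 7.36e-08). Both genes had every p140Cap library far above every mock library. Sema6b, a class 6 gene too rare for the test, had 15 reads in mock and 20 in p140Cap libraries, a pooled level 4.59 times higher in p140Cap cells (95% exact binomial counting interval 2.23 to 9.63), and it was called higher when low counts were not filtered (adjusted p = 0.00103, edgeR).

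Class 4 semaphorins all rose where they could be tested. Sema4a and Sema4c, the latter a ligand of plexin-B2, had log2 fold changes of 1.25 and 1.09 (SE 0.09 and 0.06), and those of Sema4g, Sema4b and Sema4d were 0.81, 0.34 and 0.20. Sema4d, the ligand of plexin-B1, had the highest RPKM of the membrane-bound semaphorins averaged over both groups by canonical transcript length, though Sema4c and Sema4g exceeded it by summed exon length. It was at 71.4, 64.4 and 68.8 CPM in mock and 78.4, 83 and 74.3 CPM in p140Cap libraries (adjusted p = 0.00406, edgeR). The groups were close but did not overlap. Sema6a rose as well, by a log2 fold change of 0.59, while Sema5a fell by 0.49 on that scale (adjusted p = 4.51e-06). Sema7a, a GPI-anchored semaphorin that binds plexin-C1 and integrins, had 49, 21 and 26 reads in mock and 1, 0 and 0 reads in p140Cap libraries. The fitted log2 fold change of -4.59 (SE 0.75, adjusted p = 3.94e-05) rests on that single read in the p140Cap libraries, and pooled over libraries, mock cells exceeded p140Cap cells 27.9 times (95% exact binomial counting interval 4.89 to 1113). Without p140Cap replicate 1, the library with that read, the fitted log2 fold change of Sema7a was -7.52, a value that depends on the prior count and is no bound.

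**Figure D2:**
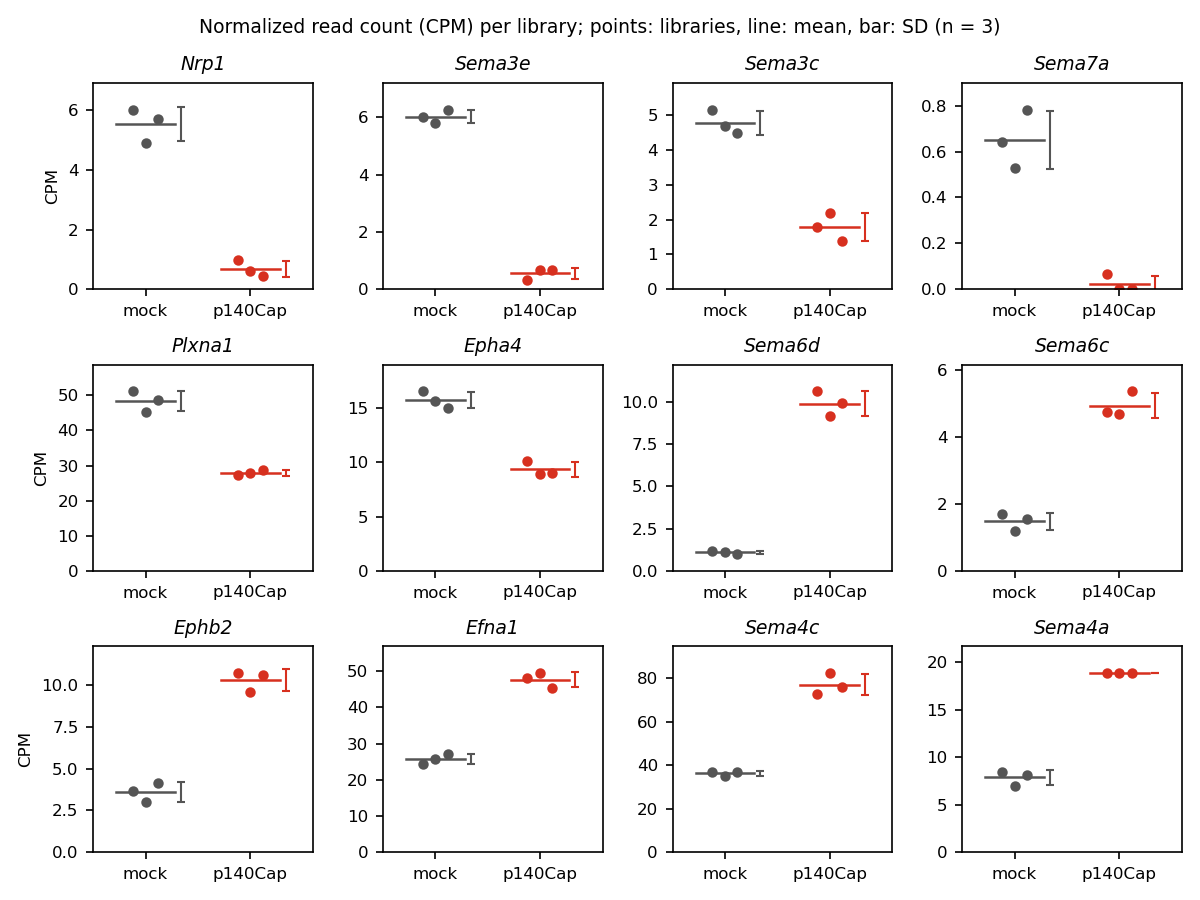
CPM (y axis, linear, a separate scale for each gene) of 12 guidance genes in the 3 mock and 3 p140Cap libraries (x axis), with points for libraries, a line for the mean and a bar for the SD. Nrp1, Sema3e, Sema3c, Sema7a, Plxna1 and Epha4 were lower and the other 6 genes higher in each p140Cap library than in any mock library.

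Plexins, the semaphorin receptors, were all called where tested (6 of 9 genes), with 4 higher and 2 lower in p140Cap cells, beside 71.1% of all genes tested. These are few genes, and their share was not tested against that one. Plxnb2, the plexin with the highest level, was at 456, 406 and 466 CPM in mock and at 524, 606 and 520 CPM in p140Cap libraries (log2 fold change 0.31, SE 0.06, adjusted p = 0.000361, edgeR). Plxnb1 came next and was lower in p140Cap cells (log2 fold change -0.34, SE 0.05, adjusted p = 2.41e-05). As a share of the summed plexin RPKM, Plxnb2 was at 66.5% ± 0.455 in mock and 74.1% ± 0.657 in p140Cap cells, and Plxnb1 at 25.5% ± 0.466 and 18% ± 0.565 (SD, n = 3 libraries each). Plxna1 and Plxnb3 had changes of similar size in opposite directions. Plxna1 was at 51.1, 45.2 and 48.8 CPM in mock and at 27.2, 27.8 and 28.7 CPM in p140Cap libraries (log2 fold change -0.80, SE 0.06, adjusted p = 9.28e-09). By RPKM, Plxna1 ranked above Plxnd1 and Plxna3 in mock cells and below both in p140Cap cells.

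Plxnd1, the receptor of Sema3e, rose from 17.7, 15.1 and 18.3 CPM to 26.4, 32.1 and 26.7 CPM (log2 fold change 0.74, SE 0.09, adjusted p = 1.16e-06, edgeR). Plxnb3 rose from 1.74, 2.01 and 2.16 CPM to 3.63, 3.41 and 2.94 CPM (log2 fold change 0.79, SE 0.16, adjusted p = 0.000358), and Plxna3 by a log2 fold change of 0.37. For both Plxnd1 and Plxnb3 the groups did not overlap. Plxnc1, the plexin that binds Sema7a, had 2 reads in mock and 0 in p140Cap libraries.

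The neuropilins moved in opposite directions. Nrp1, a co-receptor of class 3 semaphorins and of VEGF-A, had 459, 195 and 189 reads in mock libraries and 15, 9 and 6 reads in p140Cap libraries. Its level was 6, 4.9 and 5.68 CPM in mock and 0.989, 0.613 and 0.441 CPM in p140Cap libraries, so no p140Cap library came near the mock range (log2 fold change -3.01, SE 0.22, adjusted p = 3e-09, edgeR). On the 843 and 30 pooled reads, mock cells exceeded p140Cap cells 8.16 times (95% exact binomial counting interval 5.68 to 12.2). Nrp2, the co-receptor favored by Sema3f, was at 45.3, 42.2 and 42 CPM in mock and at 50.2, 56.1 and 50.8 CPM in p140Cap libraries (log2 fold change 0.27, SE 0.06, adjusted p = 0.000478). Nrp1 accounted for 14.4% ± 1 of the summed neuropilin RPKM in mock and for 1.69% ± 0.739 in p140Cap cells (SD over 3 libraries each), or for 9.17% and 1.02% with summed exon lengths. Beside this, the endothelial marker Pecam1 was at 0.235, 0.427 and 0.15 CPM in mock and 0.725, 0.477 and 0.734 CPM in p140Cap libraries, Tek had 1, 2 and 2 reads in mock and 0 in each p140Cap library, and Kdr had 0 reads in both groups. Their part in the result was not tested.

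Upstream sequence is shown for the 3 genes nearly lost in p140Cap cells and for Ephb2, the receptor with the largest increase, each of which has 1 annotated start in the promoter table. The 250 bases before that start are RefSeq sequence of GRCm38.p6, written 5′ to 3′ on the strand of the gene, with CpG dinucleotides in capitals. The windows are chr8:128358823-128359072 (plus strand) for Nrp1, chr5:14025026-14025275 (plus strand) for Sema3e, chr9:57939862-57940111 (plus strand) for Sema7a and chr4:136836013-136836262 (minus strand) for Ephb2. Only the Sema3e window abuts the outer end of its RefSeq gene, while those of Nrp1, Sema7a and Ephb2 lie inside the gene, which reaches further upstream (to 128358591, 57939596 and 136836326).
Nrp1: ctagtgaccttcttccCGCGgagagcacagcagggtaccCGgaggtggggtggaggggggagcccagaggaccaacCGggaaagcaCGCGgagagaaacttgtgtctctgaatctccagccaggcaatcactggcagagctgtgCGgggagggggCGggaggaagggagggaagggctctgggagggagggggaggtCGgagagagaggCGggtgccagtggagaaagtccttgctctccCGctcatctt
Sema3e: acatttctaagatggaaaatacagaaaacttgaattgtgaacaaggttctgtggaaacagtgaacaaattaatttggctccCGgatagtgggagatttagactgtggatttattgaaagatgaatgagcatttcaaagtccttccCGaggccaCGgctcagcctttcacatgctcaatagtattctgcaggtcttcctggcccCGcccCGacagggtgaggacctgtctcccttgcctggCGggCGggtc
Sema7a: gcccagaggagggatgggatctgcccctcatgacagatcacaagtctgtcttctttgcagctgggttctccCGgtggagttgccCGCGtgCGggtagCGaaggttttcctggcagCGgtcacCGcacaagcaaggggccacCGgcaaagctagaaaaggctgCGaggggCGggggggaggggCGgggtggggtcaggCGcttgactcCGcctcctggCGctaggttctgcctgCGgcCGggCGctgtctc
Ephb2: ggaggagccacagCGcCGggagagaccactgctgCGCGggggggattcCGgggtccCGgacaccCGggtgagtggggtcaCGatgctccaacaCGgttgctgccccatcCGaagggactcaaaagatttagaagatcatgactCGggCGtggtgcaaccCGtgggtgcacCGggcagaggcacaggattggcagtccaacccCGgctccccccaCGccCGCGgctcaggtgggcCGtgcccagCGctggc

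These windows hold 11, 7, 17 and 20 CpG dinucleotides for Nrp1, Sema3e, Sema7a and Ephb2, respectively. Promoter windows were found for 47 of the 53 guidance genes (61 windows, since some genes have several starts), with a median of 16 CpG, against 6 in all 32851 windows of that length. The nearly lost genes therefore include both a window near the overall median and windows above it. A search on both strands for TCF/LEF heptamers, here CTTTG followed by AA, AT, TA or TT, found a match in 6 of the 61 windows (9.84%), compared with 14.8% of all windows. The matches were in windows of Efna4, Epha2, Nrp2, Sema3d, Sema3e and 1 of 2 windows of Sema6d. In Sema3e it spans bases -119 to -113 from the start. These genes comprise 1 that fell, 3 that rose and 2 that were not called, and no match was found in the windows of Nrp1, Sema7a and Ephb2.

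Receptors and ligands were then compared as groups. Of the 16 tested receptor genes, 7 were called higher and 4 lower, with a median log2 fold change of 0.06. Of the 23 tested ligand genes, 16 were called higher and 5 lower, with a median of 0.51. Set against the 71.1% of all genes that were called, the receptors stood at 68.8% and the ligands at 91.3%. The called ligands include Sema3e and Sema7a, which passed the filter on low counts only through the mock libraries. The receptors not called were all Eph receptors, and the ligands not called were both ephrin-A genes. Of the 23 tested semaphorin, plexin and neuropilin genes, 16 were called higher and 7 lower.

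**Figure D3:**
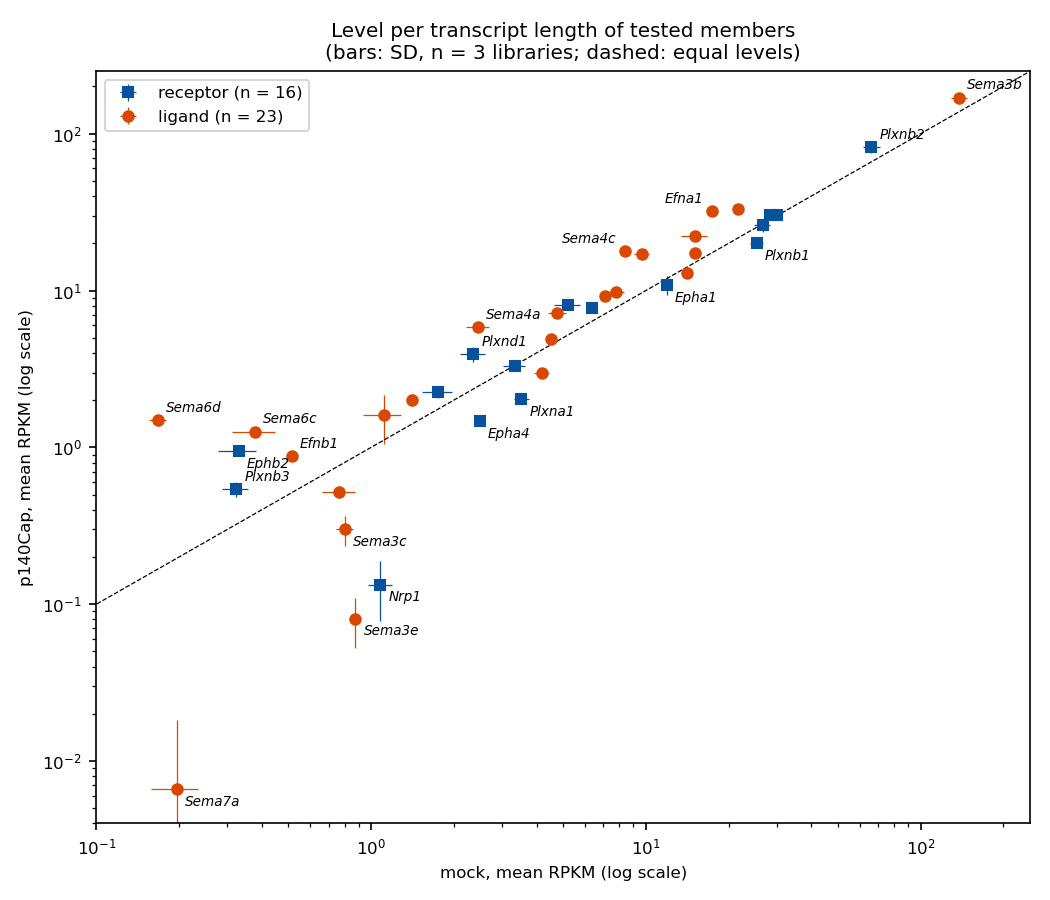
Mean RPKM in mock (x axis) against p140Cap cells (y axis), both on log scales, for 16 receptor genes (squares) and 23 ligand genes (circles), with SD bars (n = 3) and a dashed line of equal levels. Abundant genes lie close to the line, Sema3b highest at 138 and 170 RPKM, while Sema6d lies far above it and Nrp1, Sema3e and Sema7a far below. The lower SD bar of Sema7a runs off the log axis.

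The summed RPKM of ligand genes was 278, 262 and 289 in mock libraries and 365, 385 and 363 in p140Cap libraries, with no overlap. For receptor genes it was 220, 202 and 223 in mock and 223, 249 and 220 in p140Cap libraries, which overlap. The ratio of ligand to receptor RPKM was 1.29 ± 0.0189 in mock and 1.61 ± 0.0555 in p140Cap cells (SD, n = 3 libraries each). Without Sema3b, the most abundant ligand, it was 0.645 ± 0.0156 and 0.875 ± 0.0382. These sums are dominated by a few abundant genes, so the nearly lost genes hardly enter them. Sums over the summed exons of each gene in place of 1 transcript gave ratios of 1.14 and 1.40.

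**Figure D4:**
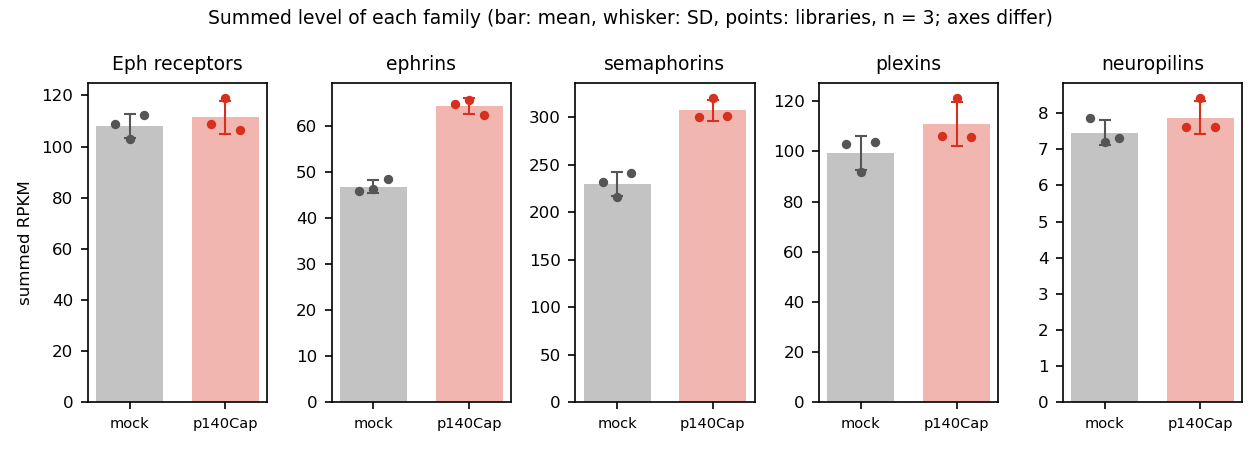
Summed RPKM (y axis, from 0, a separate scale for each family) of Eph receptors, ephrins, semaphorins, plexins and neuropilins in mock and p140Cap libraries (x axis), with bars for the mean, whiskers for the SD and points for the 3 libraries. Ephrins (46.9 against 64.4) and semaphorins (230 against 307) were higher in each p140Cap library than in any mock library, and plexins (99.5 against 111) were so by a small step, while Eph receptors (108 against 111) and neuropilins (7.46 against 7.88) overlapped.

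Known partners could be read side by side, each with the values given above. For Sema3e and Plxnd1, the ligand fell and the receptor rose. The reverse was seen for Sema6d, which rose, and Plxna1, which fell. Sema4d rose by a log2 fold change of 0.20 while Plxnb1 fell, and both Sema4c and Plxnb2 rose. In the Eph system, Efna1 and Efnb2 rose, whereas Epha2 and Ephb4, a receptor for each, were not called. Of the other Eph receptors, Epha4, which binds ephrins of both classes, fell, and the EphB receptors Ephb2 and Ephb6 rose. Such pairs were drawn from textbook knowledge after the values were known and were not tested as pairs.

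Some of the genes lie close to each other, and their changes are given side by side without a test. The ephrin genes Efna1, Efna3 and Efna4 lie within 66.3 kb of chromosome 3 (GRCm38.p6, 89271730 to 89338028) and had log2 fold changes of 0.89, 0.51 and -0.11, the last not called. Sema3d, Sema3a, Sema3e and Sema3c lie in this order on chromosome 5, between 12383161 and 17730268. Of these, Sema3d rose, Sema3a had no reads, and Sema3e and Sema3c fell. Sema3b and Sema3f lie on chromosome 9 with a gap of 72.3 kb and both rose. Plxnb3 and Plxna3 on chromosome X (gap 555.8 kb) and Sema4a and Efna1 on chromosome 3 (gap 810.5 kb) both rose as pairs, whereas Ephb6 rose and Epha1 was not called (chromosome 6, gap 738.0 kb), and Ephb2 rose and Epha8 had no reads (chromosome 4, gap 93.1 kb). Annotated genes on the opposite strand overlap Sema4d (Secisbp2), Sema4g (Mrpl43), Ephb6 (Trpv6), Ephb4 (Zan) and Epha1 (Zyx), among others, and the sources used here name a stranded kit without saying if counting used strand.

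Genes that act with these receptors were read from lists made for this comparison. Of 38 genes for Eph and ephrin signaling, 33 were tested, with 13 called higher and 8 lower (median log2 fold change 0.03). These 21 of 33 genes compare with 71.1% of all genes tested, so the list does not stand above that share. Tiam1, a Rac activator that binds Eph receptors and ephrins, fell from 23.2 ± 0.795 CPM to 11.7 ± 0.849 CPM (SD, n = 3), a log2 fold change of -0.99 with an SE of 0.08 (adjusted p = 7.03e-09, edgeR). The adaptor gene Grb7 and the Src-family kinase gene Fyn rose by log2 fold changes of 0.63 and 0.60 (adjusted p = 8.48e-09 and 3.24e-08).

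Among 42 genes for plexin and neuropilin signaling and co-receptors, 34 were tested, with 14 called higher and 10 lower (median -0.01). These 24 of 34 genes are close to the 71.1% called among all genes tested. The largest changes were in adhesion molecules of the L1 family, which can join neuropilin receptor complexes. L1cam was at 14.3, 13.5 and 13 CPM in mock and 2.77, 2.86 and 3.31 CPM in p140Cap libraries (log2 fold change -2.20, SE 0.11, adjusted p = 4.78e-11, edgeR). Its relatives Nrcam and Chl1 rose, with log2 fold changes of 2.73 and 1.65 (adjusted p = 1.68e-09 and 1.54e-13). Chl1 reached 190, 181 and 189 CPM in p140Cap libraries, against 58.5, 62 and 57.7 CPM in mock libraries. L1cam thus moved in the direction of Nrp1, and Chl1 and Nrcam moved in the other direction.

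Guidance genes of the netrin, Slit and related families were for the most part too rare in TuBo cells to be tested. Of 26 listed genes, 25 were in the counts and 9 were tested, with 5 called higher and 0 lower at an adjusted p under 0.05 (edgeR), against 35.2% and 35.9% of all genes tested. Ntn4, which encodes netrin-4, rose from 0.34, 0.377 and 0.571 CPM to 3.3, 2.79 and 2.72 CPM, and Flrt2 from 6.34, 6.91 and 6.1 CPM to 21.9, 20 and 18.9 CPM (log2 fold changes 2.85 and 1.66, adjusted p = 1.3e-08 and 6e-11). Ntn4 passed the filter on low counts only through the p140Cap libraries, in which it was high, so its call is a description. Flrt3 rose by a log2 fold change of 0.37.

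The p-values above measure the spread between these libraries, which may be technical, since separate cultures are not described for them. Because the p140Cap cells derive from pooled clones, an effect of p140Cap and traits of the founder cells cannot be told apart.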

How the data were processed

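The samples were 6 libraries of TuBo cells, 3 mock and 3 p140Cap, prepared with a poly(A)-selecting TruSeq kit. The deposited values are counts, whole numbers of reads per gene and library, which the authors left unnormalized. Processing notes of the submitters list STAR 2.5, RSEM 0.1.1 and build mm10, so these counts may be rounded estimates. The paper names GRCm39 instead, and which build the counts rest on could not be settled. The annotation release is not stated in what was used here.

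Genes were filtered with filterByExpr (minimum count 10), scaled with TMM factors and fitted by edgeR 4.0.16 (glmQLFit and glmQLFTest) in R 4.3.3 on condition alone. Adjustment followed Benjamini-Hochberg over 11800 genes, at 0.05. SE was taken as the size of the log2 fold change over the root of F. RPKM used canonical transcript lengths from GENCODE M39, and positions and promoters came from RefSeq GRCm38.p6, which corresponds to mm10 and not to GRCm39. Intervals of pooled ratios cover counting error only. Depth ranged from 13770385 to 75506562 reads, which limits rare genes most in p140Cap libraries. Counts were simulated for this comparison (11726 genes, 200 changed by at least 1 log2 unit). Of the changed genes 96.5% were recovered, and 4.926% of calls were false. Smaller changes, and data in which most genes differ, were not simulated. Libraries of a group differed beyond sampling noise (mean chi-square 1.75 to 10.7 per pair). Alternatives were DESeq2 1.42.0, RLE factors, limma-voom (limma 3.58.1), other filters, leaving out each library, a replicate block and thinning to 13770385 reads.

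Members and lists were chosen with earlier results of these data known. Each library's value was given for up to 3 called genes per class with the largest absolute log2 fold change and for the gene with the highest mean RPKM of the class, and up to 3 called genes were named per other list. Sema6b and partner pairs were singled out after their values were seen. Some marker genes are not reported here.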

Additional observations from a re-analysis of the deposited data

How the results depend on the processing

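Across 13 alternatives, 29 of the 32 called guidance genes kept their call and direction wherever they were tested, and 3 lost the call under at least 1 alternative, Efna2 (without mock replicate 1, mock replicate 2 or p140Cap replicate 3), Efna3 (0.35, adjusted p = 0.0509, with thinned libraries, edgeR) and Efnb3 (without mock replicate 1). No called gene changed direction. With each library left out in turn, 22 to 24 genes were called higher and 7 to 10 lower, and 7851 to 8253 of all genes were called. The median log2 fold change of receptors lay between 0.03 and 0.09 and that of ligands between 0.43 and 0.55. Without a filter on low counts, which adds rare genes, the median of receptors was -0.04. Epha1 was called without that filter (-0.17, adjusted p = 0.0203) and without p140Cap replicate 2 (-0.26, adjusted p = 0.00141, edgeR). The sign of genes near 0 was not fixed, and with each library left out Epha2 ranged from -0.10 to 0.02, Epha7 from -0.06 to 0.07 and Ephb3 from -0.01 to 0.06. Epha2 was at 0.01 without mock replicate 3, 0.01 without p140Cap replicate 1 and 0.02 without p140Cap replicate 3. Epha7 was at 0.00 with limma-voom, 0.07 without mock replicate 2, 0.00 without p140Cap replicate 2 and 0.01 without p140Cap replicate 3. Ephb3 was at -0.01 without the filter, without mock replicate 2 and without p140Cap replicate 2. Asking for 10 reads in each of the libraries took Nrp1, Sema3e and Sema7a out of the test, so it gave no values for them. Sema7a was also not tested with thinned libraries or when any mock library was left out, which lowers the count of lower genes there by 1. With the replicate number as a block, 23 guidance genes were called higher and 9 lower, and 8034 of all genes were called. Same-numbered libraries did not deviate together (correlations of -0.0299, -0.106 and -0.0573), and differently numbered libraries reached at most 0.0801. No pairing by number was seen, though 3 libraries per group cannot exclude a weak one. The lower depth of p140Cap libraries limits what can be said of genes with few reads. With thinned libraries, 22 guidance genes were called higher and 8 lower. For a single gene, exact permutation of 3 and 3 libraries gives no p smaller than 0.1.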
